A study of Caenorhabditis elegans with 48 samples.

Results

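The miRNA strands of Caenorhabditis elegans that carry a number of 1000 or above were followed hour by hour through early larval growth. Members were all rows of the count table named miR- with a number of at least 1000, except the strands of miR-2209a, that had at least 1 count in any library. Of 437 listed strands, 199 fell under the rule, 15 of these had no count at all and 184 were members. Of the members, 61 reached a mean of at least 10 counts over the 48 libraries and entered the tests, among 246 tested strands in all. The strands just inside this limit were miR-2217a-3p with a mean of 10.3 counts, miR-8196b-3p with 11.6 and miR-5594-3p with 11.8. Those just outside it were miR-8186-3p with 9.83 counts, miR-2219-5p with 9.69 and miR-4806-3p with 9.35.

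The libraries came from synchronised larvae that were fed in a liquid culture kept at 25°C, and samples were taken hourly from 0 to 23 h. WT is strain HW1993, which carries the luciferase reporter transgene xeSi312, driven by the broadly active eft-3 promoter. lin-28(0) is strain HW2706, which carries the same transgene and the deletion allele lin-28(xe192). Each genotype was 1 culture with 1 library per hour (24 libraries per genotype), and the p-values given here therefore measure how hours of one culture scatter. LIN-28 is an RNA-binding protein known for blocking the maturation of let-7. The loss of lin-28 could not be checked in miRNA counts, since lin-28 codes for a protein.

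A miRNA precursor yields a guide strand that is kept in Argonaute and a passenger strand that is mostly lost, and the suffixes -5p and -3p name the arm of the precursor from which a strand came. Most precursors are cut from a primary transcript by the nuclear enzyme Drosha with its partner PASH-1. Mirtrons skip this step, because the ends of their hairpin are made by splicing of a short intron. The numbers of miRNAs follow the order in which they were registered, so that numbers of 1000 and above belong to miRNAs found late, mostly by deep sequencing. A number is therefore not a measure of evolutionary age. No mature sequences were at hand, and members could not be grouped by seed.

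Values are given as CPM, the count of a strand per 1000000 counts of all miRNA strands in its library, and are thus shares of the miRNA reads and not amounts per animal. As whole animals were sampled, fewer cells of a type and less RNA per cell cannot be told apart. Library totals ran from 2315421 to 20757531 counts. A strand with 0 counts could thus have stood at up to 0.145 CPM in the deepest library and at up to 1.30 CPM in the shallowest (a floor of 3 counts, which covers counting error only). The 1 to 3 h libraries of lin-28(0) stood apart from their neighbours. In 10 of the 61 tested members all 3 of these libraries lay above both the 0 h and the 4 h library, and in 16 they lay below both. In WT these numbers were 12 and 1. Among the 184 tested strands numbered below 1000 or named (let-7, lin-4, lsy-6), here called the older strands, they were 40 and 37 in lin-28(0) and 38 and 6 in WT. The part of these libraries in the results was examined by leaving them out.

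Members were scarce and spread very unevenly. The median member had a mean of 0.355 CPM, against 62.5 CPM for the 228 detected older strands. Of the 184 members, 64 (34.8%) were seen in all 48 libraries, against 173 of 228 older strands (75.9%). A further 55 members were seen in 24 to 47 libraries, 59 in 2 to 23 and 6 in a single library. Counts of 3 or fewer in all were found for 12 members. Mean levels of at least 1 CPM were reached by 68 members, at least 10 CPM by 25, at least 100 CPM by 8 and at least 1000 CPM by 1. Seen in lin-28(0) only were 9 members and in WT only 3, none of them with more than 7 counts in all. Among the 228 older strands these numbers were 2 and 1. The lin-28(0) libraries were deeper, with a mean total of 8481670 counts against 7515500 in WT. The number of members seen in a library ran from 97 to 140 in WT and from 105 to 136 in lin-28(0). The highest number in each genotype was that of the 2 h library, which was also the deepest of its genotype, and depth moved with detection.

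The 1000s held most of the reads. The 35 detected strands numbered in the 1000s made up 83.4% of the summed mean CPM of the members, the 39 strands of the 4000s 11.9%, the 23 of the 5000s 1.73%, the 50 of the 8000s 1.504% and the 36 of the 2000s 1.49%. Their leading strands were, in the same order, miR-1022-5p (2160 CPM), miR-4816-3p (157 CPM), miR-5551-5p (42.9 CPM), miR-8196a-3p (28.6 CPM) and miR-2210-3p (20.9 CPM). The single strand above 10000, miR-12134, had a mean of 0.0122 CPM.

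The 10 members of highest mean level were miR-1022-5p, miR-1820-5p, miR-1829a-5p, miR-4816-3p, miR-1829c-5p, miR-1829b-5p, miR-4813-3p, miR-4936, miR-1822-3p and miR-1018. Together they held 86.8% of the reads of the members. The first of them, miR-1022-5p, held 51.4%, yet among all 414 detected strands it ranked only 36. Next came miR-1820-5p with 342 ± 84.7 CPM (mean ± SD, n = 24 hours) in WT as against 406 ± 103 CPM in lin-28(0). Its lowest, median and highest levels were 225, 325 and 546 CPM in WT and 285, 395 and 692 CPM in lin-28(0). The range of one genotype lay largely within that of the other, and neither the genotype difference (0.21 ± 0.09 on the log2 scale ± SE, adjusted p = 0.055) nor the change over time (adjusted p = 0.392 in WT and 0.0345 in lin-28(0)) passed the threshold of 0.01. All adjusted p-values given for levels are Benjamini-Hochberg values over the 246 tested strands, from quasi-likelihood F tests in edgeR. Narrower was the range of miR-5551-5p, at 33.7 to 58.3 CPM in WT and 35.7 to 53.4 CPM in lin-28(0). Its genotype difference was -0.04 ± 0.05.

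In relation to the genome, the members belonged to 112 precursor names, all of which were found in the WBcel235 annotation, at 116 distinct loci (mir-2217b-1 is listed both by itself and as a locus of mir-2217b). The files were made on another build, ce10, and no coordinates are given for this reason. Of the 116 loci, 44 lay outside other genes, 39 in an intron of a coding gene on the same strand, 11 in an intron on the opposite strand, 16 only in another RNA gene, 4 in an exon on the same strand and 2 in an exon on the opposite strand. The X chromosome held 27 loci, IV 24, II 23, I 20, and III and V 11 each. At 20 loci both ends lay within 3 bases of the ends of an annotated intron, as in a mirtron. Of these 20, 11 lay in introns of a single noncoding RNA gene on X, Y59E1B.1. Hosts of other loci include pash-1, which holds mir-1828, and dyf-5, a kinase gene of sensory cilia, which holds the mirtron mir-1019.

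Both strands were detected for 72 precursors and a single strand for 40. The 3p strand was the more abundant one, and so the guide, in 43 of the 72 precursors, and the 5p strand in 29. The median ratio of guide to passenger was 14.8, and 6 precursors had a ratio below 2. The dominance of the guide was 671-fold for miR-1022 (2160 against 3.22 CPM) and 2540-fold for miR-1820 (374 against 0.147 CPM). The lowest ratio was 1.01, for miR-8211 (0.833 against 0.828 CPM). Among precursors with both strands tested, miR-1832a had the lowest, 5.62.

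Taken as a share of a library, the members fell over time in both genotypes. They made up 0.436 ± 0.125% of the counts of a WT library and 0.404 ± 0.0837% of a lin-28(0) library (mean ± SD, n = 24 hours each). In WT the share was highest at 0 h with 0.762% (95% Wilson interval 0.756% to 0.769%) and lowest at 22 h with 0.282% (0.277% to 0.286%). In lin-28(0) it went from 0.602% at 0 h (0.597% to 0.607%) to 0.283% at 23 h (0.280% to 0.287%). Without miR-1022-5p the share was 0.204 ± 0.0185% in WT and 0.204 ± 0.0172% in lin-28(0) and showed no such fall. The total thus followed this single strand.

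**Figure D1:**
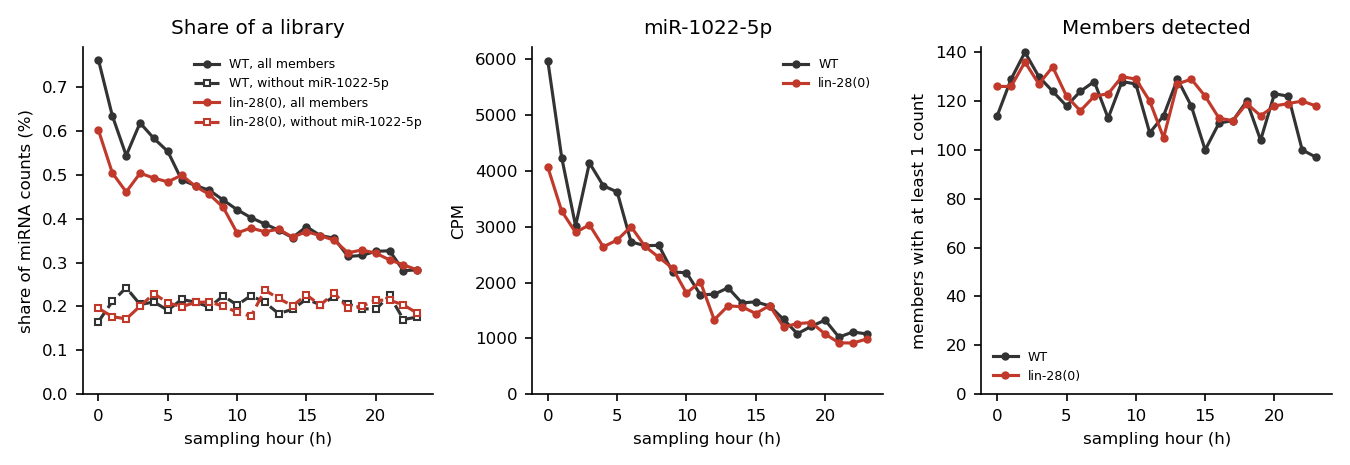
Share of the members in the miRNA counts of each library with and without miR-1022-5p (left, in percent), CPM of miR-1022-5p (middle) and number of members with at least 1 count (right), each against the sampling hour (h), for WT (dark) and lin-28(0) (red); a point is 1 library. The total share falls from 0.762% to 0.284% between 0 and 23 h in WT, whereas the WT share without miR-1022-5p stays between 0.166% and 0.243%.

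The strand miR-1022-5p, whose precursor lies outside other genes on X, ran from 1020 CPM (21 h) through a median of 1847 to 5969 CPM (0 h) in WT. In lin-28(0) it ran from 915 CPM (22 h) through a median of 1698 to 4065 CPM (0 h). Its level fell with time in both cultures, by 1.95 ± 0.16 in WT (log2 ± SE, comparing the fitted means of 20 to 23 h and of 0 to 3 h) and by 1.44 ± 0.15 in lin-28(0). Its part of the reads of the members went from 78.3% at 0 h to 31.2% at 21 h in WT. The passenger miR-1022-3p fell too, by 1.36 in WT (adjusted p = 0.00152) and by 1.33 in lin-28(0) (adjusted p = 0.00267). Averaged over the hours, miR-1022-5p was lower in lin-28(0) by a small amount (-0.21 ± 0.06, adjusted p = 0.00725), and it was lower at 18 of 24 hours. This call held in 10 of 15 alternatives, over which the difference ran from -0.37 to -0.03. The value of -0.03 (adjusted p = 0.646) came when each lin-28(0) library was treated as 2 h older than labelled. That shift goes against the direction of the tempo factor given below.

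Change over time was asked of every member in each genotype with a spline of the sampling hour. The test asks for any change over the course, and the direction is only the sign of the fitted late level minus the early level. In WT 15 of 61 members passed with a higher late level and 27 with a lower one, at backgrounds of 30.5% higher and 37.4% lower among all 246 strands. In lin-28(0) these numbers were 17 and 27, at backgrounds of 43.9% and 35.8%. The late minus early change exceeded 2 SE in 13 of the 15 and 25 of the 27 in WT, and in 14 of the 17 and 25 of the 27 in lin-28(0). Among those within 2 SE were miR-1822-5p, miR-1819-3p and miR-4806-5p in both genotypes. Called in both genotypes were 35 members, of which 10 were higher late in both and 23 lower late in both. In WT only 7 passed, in lin-28(0) only 9, and 10 passed in neither. The median log2 change of the members was -0.56 in WT and -0.44 in lin-28(0), beside -0.21 and 0.10 for all strands. The zero point depends on the scaling, since with DESeq2 size factors the median of all strands in WT became -0.04, and with total counts that in lin-28(0) became -0.18.

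The most uniform fall was that of the strands from introns of Y59E1B.1. This group of 11 mirtron precursors gave 15 detected strands, of which 8 were tested, and all 8 passed as falling in both genotypes. Their summed level ran from 48.8 CPM (23 h) through a median of 179 to 273 CPM (4 h) in WT, and from 53.5 CPM (23 h) through 167 to 237 CPM (6 h) in lin-28(0). Between 0 to 3 h and 20 to 23 h the sum dropped from 216 ± 24.9 to 63.5 ± 12.8 CPM in WT (mean ± SD, n = 4 hours), a 3.41-fold difference, and from 178 ± 12.8 to 71.3 ± 16.2 CPM in lin-28(0), a 2.50-fold difference. These early and late values did not overlap in either genotype. All strands of the group come from 1 host gene, and any reads shared by miR-4810a and miR-4810b-3p could not be told apart.

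The leading strands of this group were miR-1018 and miR-4807. In WT miR-1018 had levels of 25.1, 79.8 and 147 CPM (lowest, median, highest), with the peak at 4 h, and in lin-28(0) of 24.6, 74.8 and 126 CPM, with the peak at 8 h. It fell by 1.73 ± 0.16 in WT and by 0.88 ± 0.16 in lin-28(0). In miR-4807 the levels were 6.29, 41.0 and 62.0 CPM in WT and 8.67, 34.7 and 61.5 CPM in lin-28(0), and it fell by 2.45 ± 0.20 and by 1.51 ± 0.12. The scarcest, miR-4923b, was at 4.01 ± 0.631 CPM over 0 to 3 h and at 0.113 ± 0.0882 CPM over 20 to 23 h in WT, with 0 counts in 2 WT libraries. The strands miR-2220-3p, miR-4810a, miR-4810b-3p, miR-4808-3p and miR-4809-3p fell by 0.96 to 1.52 in WT and by 0.66 to 1.31 in lin-28(0).

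**Figure D2:**
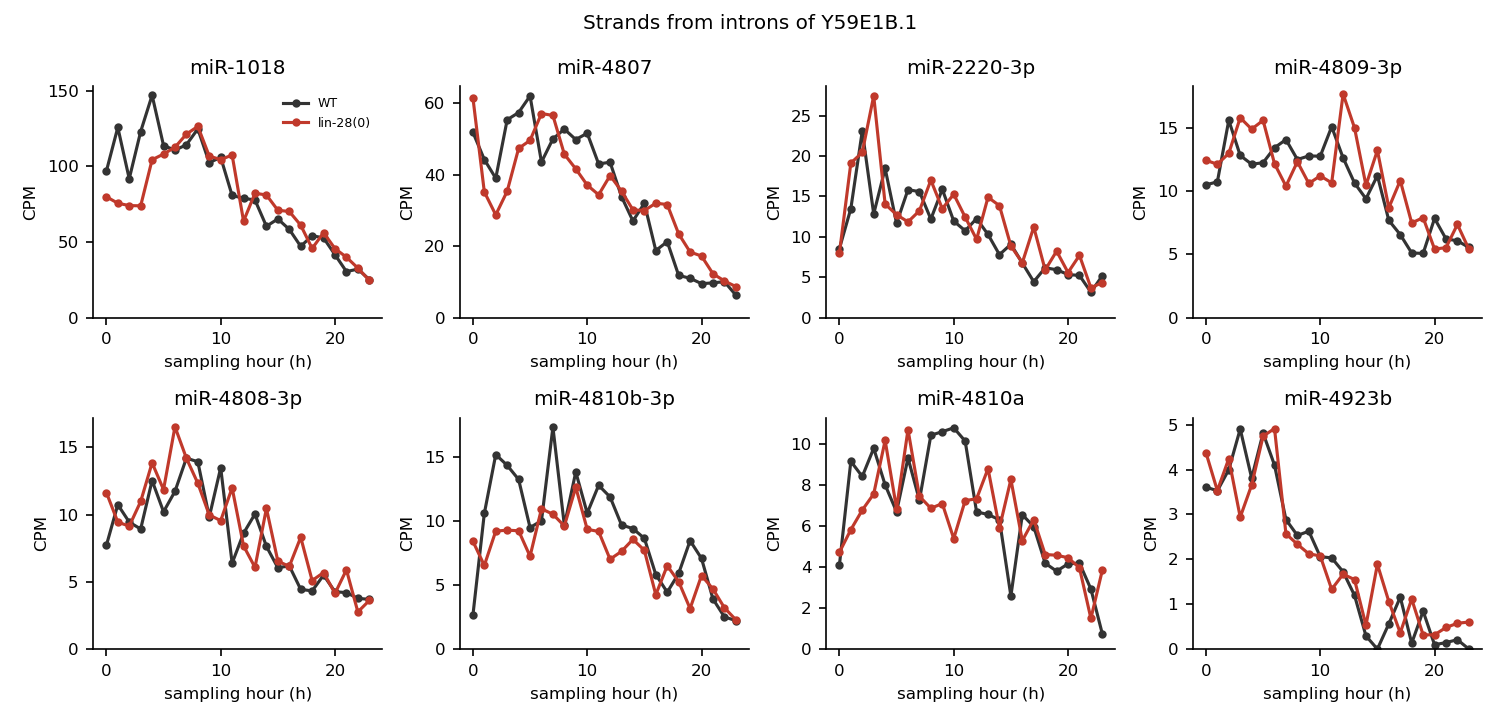
CPM of the 8 tested strands from introns of Y59E1B.1 against the sampling hour (h) in WT (dark) and lin-28(0) (red), 1 panel per strand, each with its own axis from 0 and a point per library. All 8 are lower at 20 to 23 h than at 4 to 8 h in both genotypes, and miR-4807 goes from its highest value of 62.0 CPM (5 h) to its lowest of 6.29 CPM (23 h) in WT.

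Few mirtrons in other hosts could be tested, and the difference from the Y59E1B.1 strands was not tested. Of 8 other mirtron precursors with 11 detected strands, 4 strands were tested. In WT 1 of them rose and none fell, and in lin-28(0) 3 rose and none fell. The one that rose in WT was miR-4816-3p, whose precursor lies in an intron of T09B4.2. It had levels of 40.9, 169 and 218 CPM in WT (lowest, median, highest) and of 73.4, 168 and 207 CPM in lin-28(0). Its change was 0.95 ± 0.15 in WT and 0.87 ± 0.14 in lin-28(0). Among the long-known mirtrons mir-1018, mir-1019 and mir-1020, miR-1018 alone passed as falling. The change of miR-1019-5p was -1.39 in WT (adjusted p = 0.0283) and -0.73 in lin-28(0) (adjusted p = 0.228), and that of miR-1020-3p was 0.40 (adjusted p = 0.0341) and 0.94 (adjusted p = 0.000716).

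The opposite course was taken by the miR-1829 strands. The precursors mir-1829a, mir-1829b and mir-1829c lie in introns of 3 different genes on X, namely gas-1, a subunit of mitochondrial complex I, F20D1.3, and piki-1, a phosphoinositide 3-kinase. All 6 strands were tested, all 6 rose in WT and 5 rose in lin-28(0). Their summed level went from 364 ± 85.5 CPM over 0 to 3 h to 856 ± 84.8 CPM over 20 to 23 h in WT (mean ± SD, n = 4 hours) and from 291 ± 34.99 to 831 ± 40.8 CPM in lin-28(0). Early and late values did not overlap in either culture. Members of one number with different letters are named for similar sequences, and reads that the copies share could not be told apart here.

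Of the 3 guides, miR-1829a-5p had levels of 131, 281 and 404 CPM in WT and of 88.1, 263 and 410 CPM in lin-28(0) (lowest, median, highest). It rose by 1.37 ± 0.13 in WT and by 2.01 ± 0.16 in lin-28(0). The lowest values of miR-1829b-5p were 60.4 CPM (WT, 0 h) and 46.7 CPM (lin-28(0), 1 h), its medians 147 and 122 CPM, and its highest values 302 and 239 CPM, both at 21 h. Its rise was 1.27 ± 0.15 in WT and 1.99 ± 0.17 in lin-28(0). For miR-1829c-5p the rise was 1.16 ± 0.16 and 1.35 ± 0.14.

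In the 1 to 3 h libraries of lin-28(0) the arms of these precursors moved apart. There miR-1829a-5p had between 88.1 and 95.4 CPM, below its 172 CPM at 0 h and 235 CPM at 4 h, while miR-1829a-3p had between 10.1 and 18.4 CPM, above its 3.57 and 6.73 CPM. The log2 ratio of 3p to 5p of miR-1829a was -2.72 on average in these 3 libraries and -5.82 to -4.60 in the other lin-28(0) libraries. For miR-1829b it was -1.95 against -5.03 to -2.89. In WT the ratio of miR-1829a at 1 to 3 h was -4.54 on average, beside -5.99 to -4.53 at the other hours. Its single WT values at 1 to 3 h ran from -5.01 to -3.74, so the highest WT ratio also lay in these hours. Without these libraries the rises of all 3 guides in lin-28(0) still passed the threshold.

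**Figure D3:**
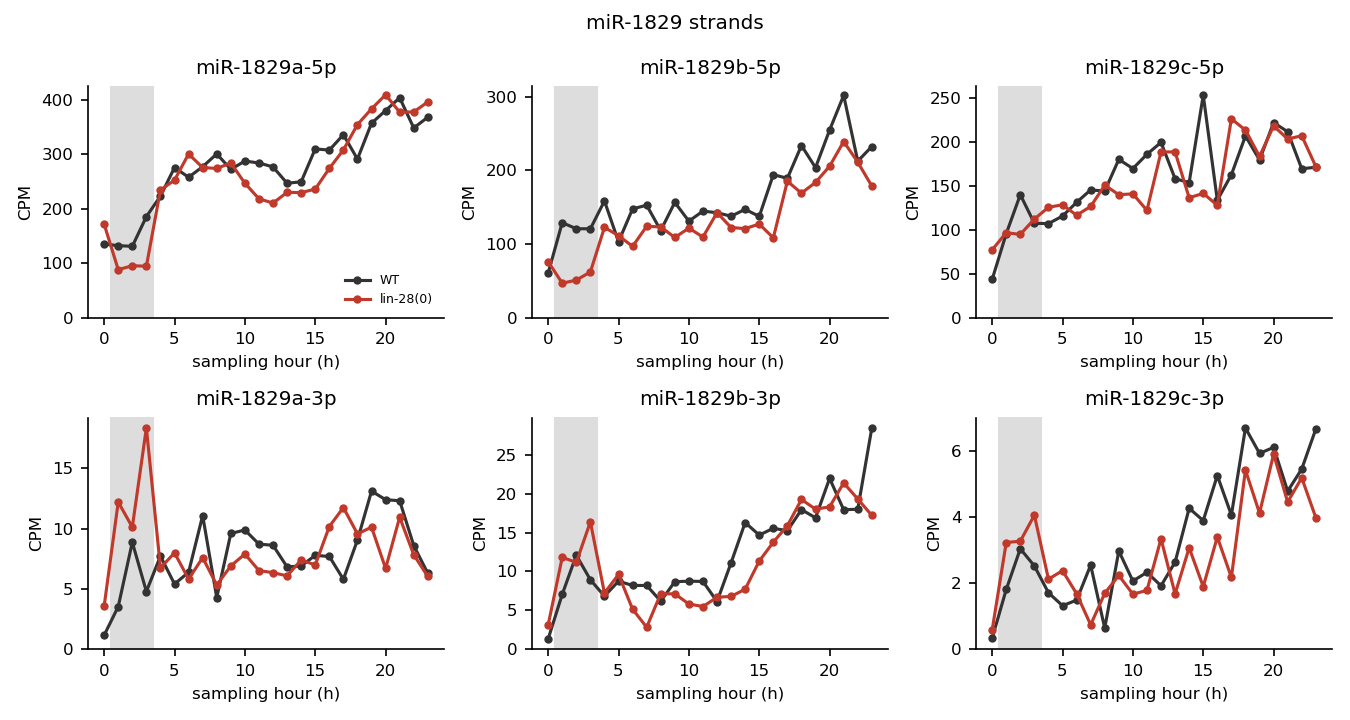
CPM of the 5p strands (upper row) and 3p strands (lower row) of miR-1829a, miR-1829b and miR-1829c against the sampling hour (h) in WT (dark) and lin-28(0) (red), with each axis from 0, a point per library and the hours 1 to 3 shaded. The 5p strands of miR-1829a and miR-1829b dip in the 1 to 3 h libraries of lin-28(0) while the 3p strands stand high, for miR-1829a-3p at up to 18.4 CPM.

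The 5 largest rises in WT among called members of at least 10 CPM were those of miR-1829b-3p (1.89 ± 0.21), the 3 miR-1829 guides and miR-1830-3p (0.96 ± 0.18). The precursor of miR-1830-3p lies in an intron of paic-1, a gene of purine synthesis, and the strand ran from 8.43 through 14.9 to 30.4 CPM in WT and from 8.10 through 14.7 to 34.9 CPM in lin-28(0). The 5 largest falls were those of miR-5546-3p, miR-4807, miR-4813-3p, miR-1022-5p and miR-1832a-5p. In miR-5546-3p, from an intron of the actin-nucleating complex gene arx-1, the change was -2.87 ± 0.25 in WT and -1.95 ± 0.17 in lin-28(0). The levels of miR-1832a-5p, from an intron of the splicing factor gene rsp-8, were 17.0, 35.2 and 107 CPM in WT and 18.2, 39.5 and 89.0 CPM in lin-28(0). It fell by 1.77 ± 0.20 and by 1.27 ± 0.17. All of these directions were the same in both genotypes.

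The largest fitted rise, that of miR-2221, lay below 10 CPM and rested on few counts. From 0 to 7 h the strand was at 0.167 ± 0.118 CPM in WT as against 0.534 ± 0.444 CPM in lin-28(0) (mean ± SD, n = 8 hours). From 16 to 23 h it was at 5.00 ± 1.27 and 5.83 ± 1.12 CPM. All late values exceeded all early values in both genotypes. The fitted log2 rise was 5.12 ± 0.54 in WT and 3.85 ± 0.48 in lin-28(0), and 1 library of each genotype had 0 counts.

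The arms of 1 precursor did not always move together. In miR-4813, from an exon of the isocitrate dehydrogenase subunit gene idhg-1, the 3p strand had levels of 30.4, 109 and 271 CPM in WT and of 39.0, 107 and 220 CPM in lin-28(0). It fell by 2.32 ± 0.16 in WT and by 1.85 ± 0.14 in lin-28(0), whereas miR-4813-5p changed by 0.29 in WT (adjusted p = 0.762) and rose by 0.66 in lin-28(0) (adjusted p = 0.00451). The log2 ratio of 3p to 5p went from 4.63 ± 0.352 over 0 to 3 h to 1.81 ± 0.298 over 20 to 23 h in WT and from 5.02 ± 0.439 to 2.62 ± 0.394 in lin-28(0) (mean ± SD, n = 4 hours). Early and late ratios were well apart in both.

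Rhythm was tested with a cosine and a sine of a period of 9 h, beside a linear trend, from 5 to 23 h. In WT 2 of 61 members passed, beside 22% of all 246 strands and 52 of 184 older strands. In lin-28(0) 1 of 61 passed, beside 18.7% of all and 45 of 184 older strands. None passed in both. The 2 in WT were miR-2216-5p, with a log2 amplitude of 1.00 (adjusted p = 0.00484), and miR-8208-3p, with one of 0.51 (adjusted p = 0.00987). The call of miR-8208-3p was lost in all 4 alternatives (adjusted p of 0.0111 to 0.0412 in edgeR or limma), and that of miR-2216-5p in 2 of 4, with periods of 8 and 10 h (adjusted p = 0.0201 and 0.0106). Neither lay above 10 CPM, and in lin-28(0) their amplitudes were 0.55 (adjusted p = 0.0797) and 0.27 (adjusted p = 0.281). Among tested strands of 10 to 100 CPM, 0 of 17 members and 17 of 55 older strands passed in WT. Of those above 100 CPM, 0 of 8 members and 30 of 100 older strands passed. Below 10 CPM, 2 of 36 members and 5 of 29 older strands passed in WT. In lin-28(0), from the lowest class up, 0 of 36, 0 of 17 and 1 of 8 members passed. For older strands these were 5 of 29, 15 of 55 and 25 of 100. Of the members, 9 in WT and 10 in lin-28(0) had an unadjusted p under 0.05. The median amplitude was 0.21 for members and 0.27 for older strands in WT, and 0.20 and 0.21 in lin-28(0).

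The rhythmic strand of lin-28(0) was miR-4936, whose precursor lies outside other genes on III. Its amplitude was 0.45 in lin-28(0) (adjusted p = 0.00193) and 0.49 in WT (adjusted p = 0.0802). With a period of 8 h the lin-28(0) amplitude was 0.29 (adjusted p = 0.226). It stood at 231 to 270 CPM at 15 to 17 h in WT and between 59.6 and 128 CPM at all other hours. In lin-28(0) it stood at 156 to 185 CPM at 15 to 17 h and between 25.9 and 138 CPM at the others. The 3 hours were thus the highest of the course in both cultures.

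**Figure D4:**
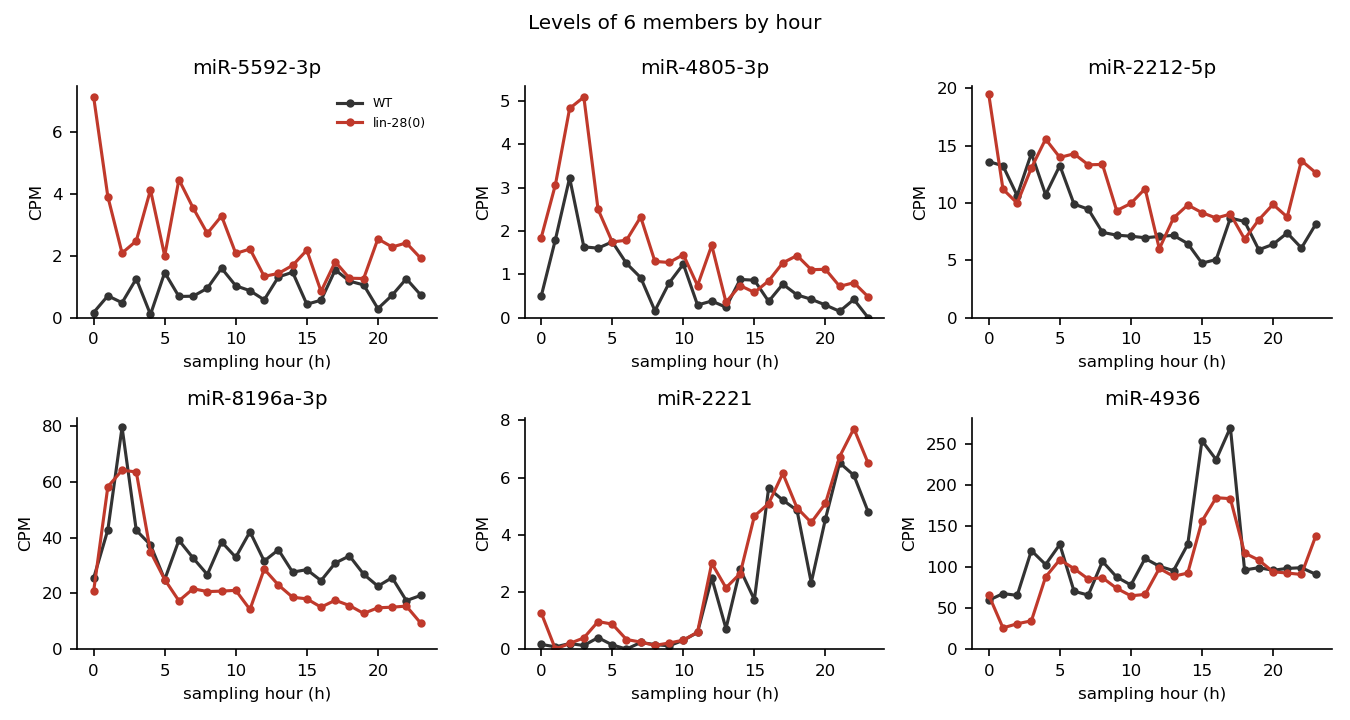
CPM of miR-5592-3p, miR-4805-3p, miR-2212-5p, miR-8196a-3p, miR-2221 and miR-4936 against the sampling hour (h) in WT (dark) and lin-28(0) (red), with each axis from 0 and a point per library. The lin-28(0) points of miR-5592-3p lie above the WT points at all 24 hours, and miR-4936 stands at 231 to 270 CPM at 15 to 17 h in WT.

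Between the genotypes, 7 of 61 members were higher and 5 lower in lin-28(0) on average over the 24 hours. Among all 246 strands 16.3% were higher and 6.5% lower. Of the members 19.7% thus passed, as did 23.4% of the older strands. The split depends on the scaling. With DESeq2 size factors it was 6 higher and 7 lower among members and 33 and 23 among all strands. With TMM factors computed after the filter on low counts, an alternative chosen after the data were seen, it was 6 and 6 and 31 and 22. The median log2 difference of the members was -0.03 and that of all strands 0.04, and 55 of 61 members differed by less than 0.5. The highest of the differences was 1.41 and the lowest -0.59. These differences compare equal hours. A tempo factor fitted on the 184 older strands was 1.11, which matched WT hours to later lin-28(0) hours. In strands that change with time, a difference at equal hours can thus hold a difference in tempo. Dividing the lin-28(0) hours by this factor, which kept 44 libraries, was 1 of the alternatives.

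The clearest difference was that of miR-5592-3p, a scarce strand whose precursor has loci on both DNA strands within an intron of aakb-1, a subunit gene of the energy sensor AMPK. Its levels were 0.1003, 0.805 and 1.60 CPM in WT and 0.848, 2.20 and 7.15 CPM in lin-28(0) (lowest, median, highest), and all 24 hours were higher in the mutant. The ranges of 0 to 7 h did not overlap, with at most 1.46 CPM in WT and at least 2.00 CPM in lin-28(0). The average log2 difference was 1.41 ± 0.17 (adjusted p = 1.54e-08). It was 2.34 ± 0.26 over 0 to 7 h (adjusted p = 3.33e-09), 0.93 ± 0.28 over 8 to 15 h (adjusted p = 0.0321) and 0.96 ± 0.30 over 16 to 23 h (adjusted p = 0.0246). Its call held under all 14 alternatives that could be computed, as did that of miR-4805-3p.

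Also scarce was miR-4805-3p, with 0, 0.648 and 3.23 CPM in WT and 0.357, 1.285 and 5.10 CPM in lin-28(0), and 21 of 24 hours were higher in the mutant. Its difference was 0.94 ± 0.19 (adjusted p = 0.00027). The levels of miR-2212-5p were 4.75, 7.41 and 14.3 CPM in WT and 6.01, 9.98 and 19.5 CPM in lin-28(0), with 19 of 24 hours higher and a difference of 0.36 ± 0.07 (adjusted p = 0.00027). Its precursor neighbours mir-1819 on X, whose strand miR-1819-3p differed by 0.11 ± 0.07 (adjusted p = 0.228).

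Both strands of miR-2210, from an exon of ZK593.2, were higher in lin-28(0). The guide miR-2210-3p had levels of 8.38, 17.4 and 38.3 CPM in WT and 11.8, 21.3 and 39.9 CPM in lin-28(0), and differed by 0.31 ± 0.07 (adjusted p = 0.000892). The passenger miR-2210-5p had 0.957, 2.43 and 3.80 CPM in WT and 1.45, 2.85 and 7.14 CPM in lin-28(0), and differed by 0.48 ± 0.11 (adjusted p = 0.000694). The passenger was at 5.89 ± 0.850 CPM over 0 to 3 h in lin-28(0) against 2.27 ± 0.667 CPM in WT. This lin-28(0) value includes the 1 to 3 h libraries, and without them the passenger did not pass over 0 to 7 h. Its call in the average difference held in 13 of 14 alternatives.

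A further pair was also higher in the mutant. Levels of miR-5546-3p were 3.70, 15.6 and 53.0 CPM in WT and 6.85, 17.4 and 69.6 CPM in lin-28(0), with 23 of 24 hours higher and a difference of 0.34 ± 0.08 (adjusted p = 0.00122). Levels of miR-1821-3p were 34.0, 61.9 and 180 CPM and 40.6, 72.9 and 166 CPM, with 21 of 24 hours higher and a difference of 0.22 ± 0.07 (adjusted p = 0.008). Matching the hours differently bore on such strands, which change steeply with time. Treating each lin-28(0) library as 2 h younger than labelled goes in the direction of the fitted tempo factor. Under this shift miR-5546-3p differed by 0.09 (adjusted p = 0.456), miR-1821-3p by 0.08 (adjusted p = 0.384) and miR-2210-3p by 0.15 (adjusted p = 0.139). When the 1 to 3 h libraries of lin-28(0) were left out, miR-1821-3p differed by 0.09 (adjusted p = 0.28).

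Lower in lin-28(0) was foremost miR-8196a-3p, whose precursor lies in an exon of the noncoding RNA gene linc-154 on X. Its levels were 17.4, 31.2 and 79.6 CPM in WT and 9.40, 19.6 and 64.2 CPM in lin-28(0), and it was lower at 21 of 24 hours. Its difference was -0.59 ± 0.08 (adjusted p = 7.95e-08), with -0.21 ± 0.12 over 0 to 7 h (adjusted p = 0.206), -0.68 ± 0.13 over 8 to 15 h (adjusted p = 0.000152) and -0.87 ± 0.13 over 16 to 23 h (adjusted p = 2.2e-06). Without the 1 to 3 h libraries of lin-28(0) the difference over 16 to 23 h was -0.82. The change from the first to the last window was then only -0.22 (adjusted p = 0.704). The strand of the same number, miR-8196b-3p, differed by -0.14 ± 0.29 (adjusted p = 0.751).

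For miR-1829b-5p the difference was -0.39 ± 0.06 (adjusted p = 1.17e-05), with 20 of 24 hours lower. The other guides of the same number differed by less, miR-1829a-5p by -0.15 ± 0.05 (adjusted p = 0.0314) and miR-1829c-5p by -0.08 ± 0.06 (adjusted p = 0.37). The level of miR-4813-5p was 9.33 ± 2.60 CPM in WT as against 7.39 ± 1.96 CPM in lin-28(0) (mean ± SD, n = 24 hours), a difference of -0.40 ± 0.11 (adjusted p = 0.0064). That of miR-4936 was 114 ± 56.9 and 94.9 ± 40.7 CPM, a difference of -0.33 ± 0.10 (adjusted p = 0.00859). Both were lower at 18 of 24 hours. When the 1 to 3 h libraries of lin-28(0) were left out, the values were -0.41 (adjusted p = 0.0174) and -0.22 (adjusted p = 0.156).

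**Figure D5:**
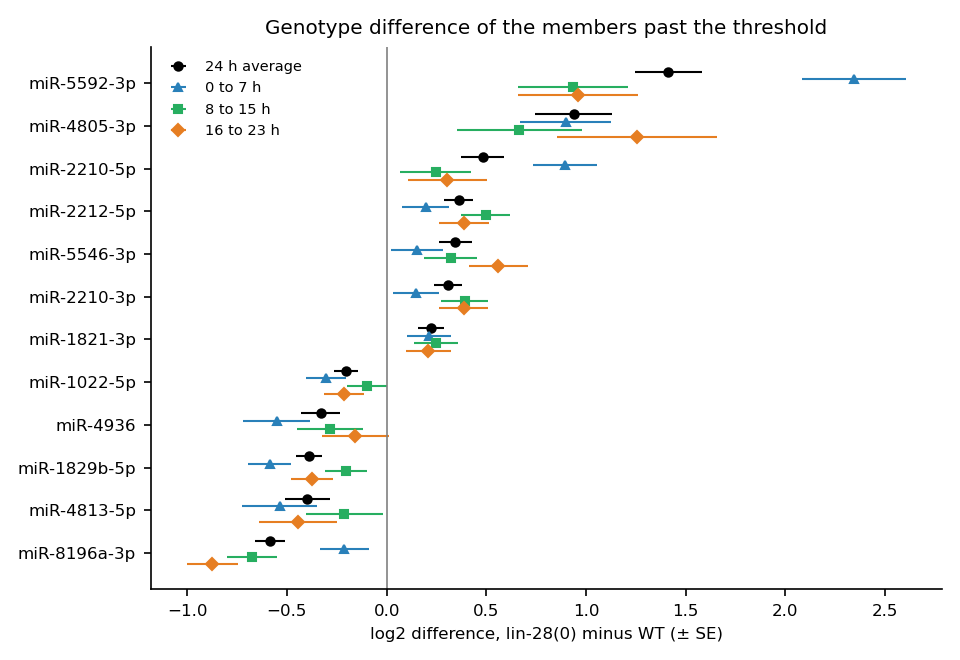
Log2 difference between lin-28(0) and WT of the 12 members past the threshold, averaged over the 24 hours (circles) and over 0 to 7 h (triangles), 8 to 15 h (squares) and 16 to 23 h (diamonds), with bars of ± SE. The largest value is the 2.34 of miR-5592-3p over 0 to 7 h, and that of miR-8196a-3p goes from -0.21 to -0.87 between the first and the last window. Without the 1 to 3 h libraries of lin-28(0), miR-8196a-3p changed by -0.22 between these windows.

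By window, 5 members were higher and 4 lower in lin-28(0) over 0 to 7 h, where 13.8% of all strands were higher and 6.1% lower. Besides miR-5592-3p, miR-4805-3p and miR-2210-5p, these were miR-1830-5p (0.97 ± 0.22) and miR-1829a-3p (0.66 ± 0.18) among the higher, and miR-8208-3p (-1.04 ± 0.30), miR-1829b-5p (-0.59 ± 0.11), miR-4816-5p (-0.51 ± 0.13) and miR-1018 (-0.36 ± 0.10) among the lower. This window holds the 1 to 3 h libraries of lin-28(0), and without them 2 members passed, miR-5592-3p and, outside the 9, miR-2221 (2.79, adjusted p = 0.000479). With hour 0 left out of both genotypes, 3 were higher and 9 lower, with 6 of the 9 members among them. The numbers among all strands are not given for these left-out libraries, so such shifts cannot be read as particular to the members. With DESeq2 size factors the split over 0 to 7 h was 5 higher and 6 lower among members and 30 and 22 among all strands, beside 34 and 15 here. Over 8 to 15 h 1 member was higher, miR-2212-5p, and 1 lower, miR-8196a-3p, at backgrounds of 1.63% and 1.22%. Over 16 to 23 h miR-5546-3p and miR-4807 were higher and miR-8196a-3p lower, at backgrounds of 3.25% and 4.47%. Without the WT library of 23 h, left out after the data were seen, 1 member passed in this window. Scaling by total counts gave 4 higher and 1 lower among members and 17 and 8 among all strands in this window, beside 8 and 11 here. From the first to the last window the difference went up in 1 member and down in 3, while it went up in 2.85% and down in 4.88% of all strands. Without the 1 to 3 h libraries of lin-28(0) none of these passed in edgeR, and 11 of 61 members had an unadjusted p under 0.05.

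The ratio of the strands of a precursor cancels a change in the precursor only where both strands have followed it to the same degree. The paper holds passenger strands to be less stable than guides, and 1 CPM was added to each strand. This ratio was compared between the genotypes for 10 member precursors with both strands tested. None passed, while of all 84 precursors 3.57% were higher and 4.76% lower in lin-28(0) (two-sided sign-flip permutation test over the 24 hours, Benjamini-Hochberg over the 84). The lowest p was that of miR-4813, whose log2 ratio of 3p to 5p was higher by 0.35 ± 0.15 in lin-28(0) (permutation p = 0.0305, adjusted p = 0.128), at 15 of 24 hours, and it was the single one with an unadjusted p under 0.05. For miR-2210, both strands of which were higher in lin-28(0), the ratio differed by -0.07 ± 0.12 (permutation p = 0.575, adjusted p = 0.711).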

How the data were processed

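Small RNA libraries of 24 hourly WT and 24 lin-28(0) samples were counted by the authors per miRNA strand, and the deposited count table holds raw read counts. Per the submitters' notes reads were aligned to ce10 with Bowtie (version not given in the sources used here). Up to 100 hits per read were allowed, and reads starting within 3 bases of an annotated 5′ end were counted, as the study's methods state. Libraries were sequenced in 3 reactions with 2 kits, and which entered each library was not stated. The deposited log2 table equals the log2 of scaled counts plus 8, within 0.0005, and was not used for tests.

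Levels were tested in edgeR 4.0.16 (R 4.3.3) by quasi-likelihood F tests with TMM factors, a mean count of at least 10, a centred spline of 6 components per genotype, Benjamini-Hochberg adjustment over 246 strands and a threshold of 0.01. Strand ratios used a pseudocount of 1 CPM and 100000 sign flips in Python 3.11.15. The scripts were tested on simulated data. Alternatives included DESeq2 1.42.0, limma 3.58.1, other scalings, filters and periods, shifted hours and left-out libraries. TMM after the filter and leaving out the WT library of 23 h were added after the data were seen. Named in full were members past the threshold between genotypes, the 10 most abundant, the 5 largest rises and falls in WT and the rhythmic members. Members and lists were chosen with earlier results of these data known. No libraries were duplicates (1128 pairs, smallest chi-square per degree of freedom 118). Intervals are 95% Wilson intervals and, like the floors of 3 counts, cover counting error only, because PCR copies of a molecule were not marked.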

Additional observations from a re-analysis of the deposited data

Results flagged for a closer look

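In 4 members the genotype difference changed between the first and the last window (16 to 23 h minus 0 to 7 h) past the threshold in edgeR. For miR-4807, of an intron of Y59E1B.1, the change was 0.66 (adjusted p = 0.0029), from -0.21 to 0.45. For miR-8196a-3p it was -0.66 (adjusted p = 0.00854), from -0.21 to -0.87. For miR-4812-5p, from the same host as mir-1829c, it was -0.64 (adjusted p = 0.00894), from 0.26 to -0.39. For miR-8191-5p it was -1.10 (adjusted p = 0.00708), from 0.57 to -0.53. None of the 4 passed without the 1 to 3 h libraries of lin-28(0) (adjusted p of 0.104 to 0.704 in edgeR), where miR-8196a-3p changed by -0.22. None passed without the WT library of 23 h either (adjusted p of 0.0156 to 0.0357 in edgeR). The part of these libraries beyond these values was not tested.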

How the results depend on the processing

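Signs under the alternatives were compared for the named strands in the average difference, its change between windows and the change over time. None of these reversed. Signs of single strands within a window were not compared, and the balance of higher and lower members did shift, as given above. The count of members past the threshold in the average genotype difference (12) ranged from 8 to 13, except that it was 21 with lin-28(0) hours shifted by 2 h. Numbers among all strands are not set beside these counts, so the 21 cannot be read as particular to the members. A replicate block on the sampling hour, which the cultures share only as a number, gave 9. Members called over 8 to 15 h (2) became 1 with limma, without the 1 to 3 h libraries of lin-28(0), without hour 0, with TMM after the filter and without the WT library of 23 h. Over 0 to 7 h (9) there were 2 without the 1 to 3 h libraries of lin-28(0). Over 16 to 23 h (3) there were 5 with total counts and 1 without the WT library of 23 h. Changes between windows (4) became 2 with DESeq2 size factors and with TMM after the filter, 1 with total counts, 1 without the WT library of 23 h, which was miR-8210-5p (-1.09) and none of the 4, and 0 without the 1 to 3 h libraries of lin-28(0) (edgeR, 11 unadjusted p under 0.05). Changes over time in lin-28(0) (44) became 29 with a mean count of at least 50, where 33 members were tested. Rhythm in WT (2) became 1 with periods of 8 and 10 h, which was neither of the 2. With limma it became 1 as well, which was miR-2216-5p. Rhythm in lin-28(0) (1) became 0 with 8 h (edgeR, 6 unadjusted p under 0.05) and 2 with 10 h. Of the values of single strands in the average difference, 144 kept their call and 33 lost it. The causes were not tested.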

Other observations

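In the WT library of 23 h miR-8191-5p, from an intron of C09B9.85, stood at 49.9 CPM, 7.69 times its next highest WT value of 6.49 CPM. Its mean over the other 23 WT hours was 2.76 ± 1.11 CPM (SD), and its highest lin-28(0) value was 5.55 CPM.

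The passenger miR-1822-5p had between 18.4 and 24.6 CPM at 12 to 15 h in WT, with the highest value at 13 h. In lin-28(0) its highest value was 18.5 CPM, at 15 h.

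By location, 12 of 28 tested members in an intron of a coding gene on the same strand passed with a higher late level in WT and 8 with a lower one (12 and 6 in lin-28(0)). Of the 12 in WT, 6 were miR-1829 strands, whose shared reads could not be told apart. Outside genes the numbers were 2 and 8 of 15 in WT and 3 and 7 in lin-28(0). Among all strands 30.5% were higher and 37.4% lower late in WT, and 43.9% and 35.8% in lin-28(0). All 9 tested members located only in another RNA gene fell in both genotypes, 8 of them from Y59E1B.1.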
